A study of Mus musculus with 6 samples.

Results

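Imprinted genes were followed across Dicer deletion in mouse embryonic stem cells. The set was a list of 40 genes known to be expressed from the copy of a single parent in at least some mouse tissues. A gene was measured here when a probe set of the array had it as its only gene symbol, which held for 33 of the 40 among 19938 genes in all. No member had more than 1 such probe set, so no choice between probe sets was needed. Of the 33, 15 are known as maternally expressed, from the copy inherited from the mother, and 18 as paternally expressed. H19, Kcnq1ot1 and Zrsr1 had no probe set listed, and those of Mirg, Snrpn, Ube3a and Gnas carried symbols of other genes too. These 7 were not analysed here.

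The cells carried floxed Dicer alleles (Dicer Fx/Fx), in which recombination removes a part of the gene. The untreated group had 3 arrays of cells without deletion, and the tamoxifen group had 3 arrays of cells of the same genotype after deletion. Tamoxifen was given for 3 days and cells were collected 2 days later, on day 5. No collection day is recorded for the untreated cells, and the recombinase that tamoxifen activates is not named. Wild-type E14 cells given tamoxifen are mentioned in the protocol and were not analysed here. Effects of tamoxifen itself and of Dicer loss therefore cannot be told apart. Whether replicates came from separate cultures is not stated, so the tests gauge the spread of these samples alone, possibly a technical one.

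In imprinting, a methylation mark set in the egg or the sperm keeps a gene of that parental copy silent or active in the offspring. Most imprinted genes lie in clusters, each governed by an imprinting control region, where a long non-coding RNA and protein-coding genes are often expressed from opposite copies. Many of the proteins promote or restrain growth of the embryo and placenta, and imprints can be lost in cultured embryonic stem cells. Dicer cuts hairpin precursors into mature microRNAs, and several imprinted clusters contain microRNA genes. The arrays read total RNA of a gene and do not tell the parental copies apart, so no value below measures imprinting itself.

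The values are log2 intensities per probe set, in which a difference of 1 is a doubling of the signal. Across genes, the correlation between arrays was 0.996 to 0.998 within a group and 0.993 to 0.996 between groups. Dicer1, the targeted gene, read 11.43, 11.36 and 11.48 in the untreated arrays and 9.53, 9.48 and 9.69 in the tamoxifen arrays. It fell by 1.85 on the log2 scale, with a standard error (SE) of 0.07 and a limma adjusted p of 3.61e-05. The 8 embryonic stem cell markers had mean signals from 9.87 to 13.92, and limma called none of them changed (0 at an adjusted p under 0.05, 2 at an unadjusted p under 0.05). Of the 9 measured fibroblast markers, which would show feeder cells, limma also called 0, with 1 at an unadjusted p under 0.05. Their mean level was 6.57 to 6.79 in untreated and 6.71 to 6.75 in tamoxifen arrays. None of 8 primitive endoderm markers was called by limma either, with 1 higher and 2 lower before adjustment (p under 0.05). Called rises were 1 of 8 neural markers (Ncam1) and 1 of 7 mesoderm markers (Kdr), where 3.79% of all genes were called higher. With the replicate number as a block, 3 neural markers and 1 mesoderm marker were higher, 1 primitive endoderm marker was higher and 2 lower, and 1 stem cell marker and 1 fibroblast marker were lower. For comparison, limma called 7.78% of all genes in either direction, and 24.5% passed 0.05 before adjustment. The blocked fit called 7.87% of all genes higher and 9.54% lower. Differences between these short marker lists and all genes were not tested. Nor was the part of these markers in the results below.

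The promoters of the 3 members that rose are shown first, with that of Magel2 as the neighbour of Ndn that was not called. The sequences come from RefSeq (build GRCm38.p6) and run from 250 bases before to 50 bases after the annotated start, on the gene's own strand. Plagl1 is at chr10:13090582-13090881 on the plus strand and Peg3 at chr7:6730370-6730669 on the minus strand. Ndn is at chr7:62348027-62348326 and Magel2 at chr7:62376729-62377028, both on the plus strand. Capitals mark CpG dinucleotides, the sites at which DNA methylation is carried.
Plagl1: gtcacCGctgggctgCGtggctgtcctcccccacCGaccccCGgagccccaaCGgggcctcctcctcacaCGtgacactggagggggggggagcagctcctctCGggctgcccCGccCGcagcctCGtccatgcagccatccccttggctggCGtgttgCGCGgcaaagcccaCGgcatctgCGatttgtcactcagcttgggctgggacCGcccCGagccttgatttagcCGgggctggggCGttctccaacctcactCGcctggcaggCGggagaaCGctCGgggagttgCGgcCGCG
Peg3: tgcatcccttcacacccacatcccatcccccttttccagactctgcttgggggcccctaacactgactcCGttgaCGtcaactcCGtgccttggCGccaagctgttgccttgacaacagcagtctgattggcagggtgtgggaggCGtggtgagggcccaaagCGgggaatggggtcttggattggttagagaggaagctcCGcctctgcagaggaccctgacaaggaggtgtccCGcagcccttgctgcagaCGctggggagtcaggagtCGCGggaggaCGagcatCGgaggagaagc
Ndn: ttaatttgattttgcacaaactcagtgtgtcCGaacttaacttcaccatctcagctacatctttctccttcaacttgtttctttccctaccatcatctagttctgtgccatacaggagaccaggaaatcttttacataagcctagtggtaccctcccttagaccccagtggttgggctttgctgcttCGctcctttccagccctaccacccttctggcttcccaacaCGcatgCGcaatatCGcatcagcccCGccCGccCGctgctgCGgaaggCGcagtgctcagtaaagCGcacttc
Magel2: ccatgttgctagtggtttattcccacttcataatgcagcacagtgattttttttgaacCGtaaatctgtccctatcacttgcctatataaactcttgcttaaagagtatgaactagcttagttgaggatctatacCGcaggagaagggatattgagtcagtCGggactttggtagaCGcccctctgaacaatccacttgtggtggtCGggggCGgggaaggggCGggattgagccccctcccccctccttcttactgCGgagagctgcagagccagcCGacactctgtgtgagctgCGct
The Plagl1 window held 26 CpGs, the Peg3 window 13, the Ndn window 11 and the Magel2 window 10. The median was 7 over all 32851 windows of the table and 13 over the 38 windows of the 26 members that had any. The hexamer TGCCGC, bound by the imprint-protecting zinc-finger protein ZFP57 when methylated, was searched on both strands. It matched once in the Plagl1 window, on the minus strand, and not in the windows of Peg3, Ndn and Magel2. In 23.7% of the members' windows and 11.6% of all windows there was at least 1 match. The Peg3 window overlaps that of its divergent neighbour Usp29 by 263 bases. A match is only a description of these letters, and methylation was not measured.

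Of the 33 measured imprinted genes, 3 rose after tamoxifen, none fell and 30 were not called. Plagl1, Ndn and Peg3 rose 2.25-fold, 1.34-fold and 1.22-fold. All 3 are paternally expressed. They make up 9.09% of the 33 members, while limma called 7.78% of all genes tested in either direction and 3.79% higher. None of the members was called lower, against 3.99% of all genes, although 3 members were lower at an unadjusted p under 0.05, where 13.1% of all genes lay. At that unadjusted p, 7 members were higher, and 11.5% of all genes were. The median log2 change was 0.04 over the members and 0.01 over all genes tested. The share of members called lay near the background, so the list did not stand apart by its count. Changes were small for most members: 25 of the 33 were within 0.2 of zero on the log2 scale, or 75.8%, as were 78.7% of all genes. Differences between maternally and paternally expressed genes as classes were not tested.

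**Figure D1:**
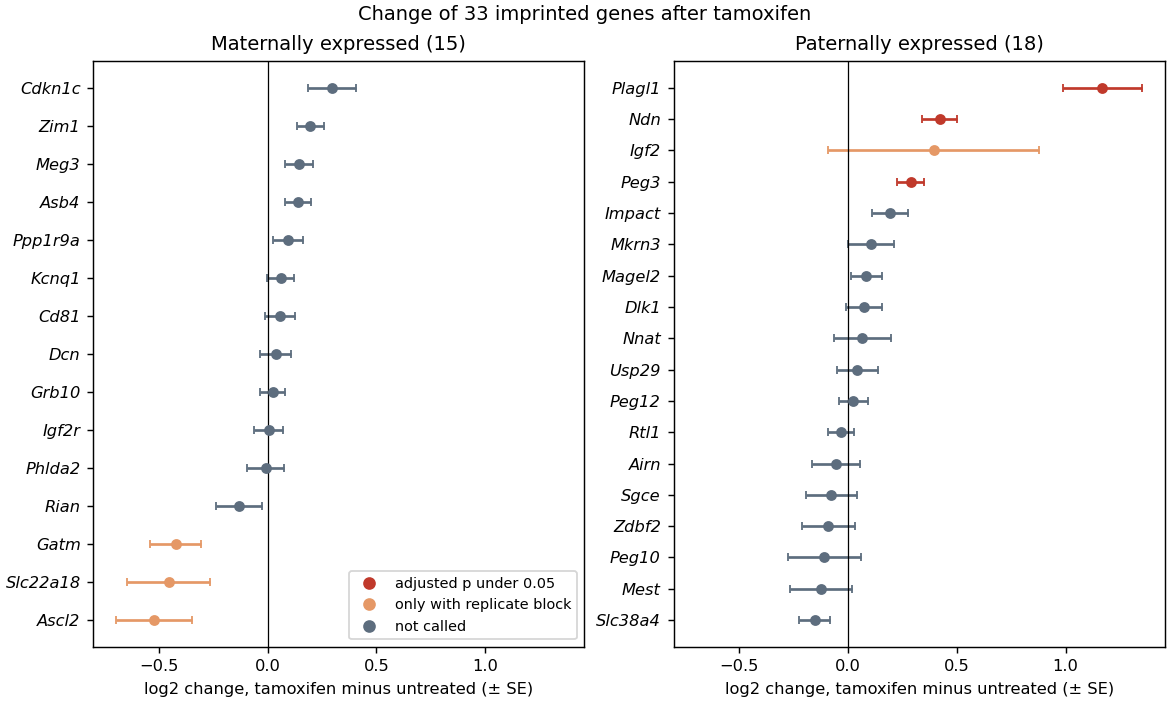
Log2 change (tamoxifen minus untreated, points) with limma's SE (bars) of the 15 maternally and 18 paternally expressed members, sorted by change. Plagl1, Ndn and Peg3 on the right are called at an adjusted p under 0.05, and Ascl2, Slc22a18, Gatm and Igf2 only with the replicate number as a block.

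The labels number the replicates but state no pairing. That arrays with the same number are pairs was inferred from these data and is an assumption of the blocked fit. After removing group means, arrays sharing a number correlated over genes at 0.356, 0.345 and 0.389, and arrays with unlike numbers at no more than -0.115. Removing the means forces values for unlike numbers below 0 on average once same-numbered ones are positive. The negative values are therefore no separate evidence of pairing. With the number as a block in limma, 4 members rose and 3 fell, 21.2% of the members against 17.4% of all genes. The 4 higher (Plagl1, Ndn, Peg3 and Igf2), all paternally expressed, were 12.1% of the members, against 7.87% of all genes. The 3 lower (Gatm, Ascl2 and Slc22a18), all maternally expressed, were 9.09%, against 9.54% of all genes. Without the block, at an unadjusted limma p under 0.05, 3 maternally expressed members were higher and 3 lower. Of paternally expressed members 4 were higher and 0 lower. The median log2 changes of the classes were 0.037 (maternal) and 0.055 (paternal). A split by parental copy was not tested.

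Plagl1 encodes a zinc-finger transcription factor that restrains cell growth and regulates other imprinted genes. It read 8.53, 9.09 and 9.29 in untreated arrays and 9.92, 10.16 and 10.34 in tamoxifen arrays. All tamoxifen values lay above all untreated values, and the groups did not overlap. The change was 1.17 ± 0.18 on the log2 scale (SE, n = 3 arrays a group) with a limma adjusted p of 0.010, rank 12 among the called rises of all genes. Within replicate pairs the rise was 1.39, 1.07 and 1.05, and the blocked adjusted p was 0.000233. The gene was called in 6 of 6 fits that left out an array, with adjusted p-values from 0.00981 to 0.0475. It was not called when all 35556 probe sets of the table were tested together (adjusted p = 0.0592).

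Of the 6 measured genes nearest to Plagl1, 1 rose and 1 fell. On the side before it in the RefSeq order, the splicing factor gene Sf3b5 fell by 0.30 on the log2 scale (SE 0.07, limma adjusted p = 0.0361). The next measured gene, Stx11, had a change of 0.10 ± 0.08 and was not called, and Utrn beyond it rose by 0.37 ± 0.07 (adjusted p = 0.0187). On the other side, Zc2hc1b, Ltv1 and Phactr2 had log2 values of 0.04, 0.04 and 0.16 for the difference (adjusted p from 0.153 to 0.857).

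Ndn encodes necdin, a protein that restrains growth and is abundant in neurons. Its untreated values were 9.68, 9.68 and 9.60, and its tamoxifen values were 10.25, 10.01 and 9.98. The highest value was that of tamoxifen replicate 1, and the groups did not overlap. The change was 0.42 ± 0.08 on the log2 scale with a limma adjusted p of 0.0197, or 0.00479 with the block. It was called in 3 of 6 fits without an array. The call was lost without untreated replicate 2 (adjusted p = 0.0653), untreated replicate 3 (0.0589) or tamoxifen replicate 2 (0.0583), and over all probe sets of the table (0.0777).

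Ndn lies in the cluster of the Prader-Willi and Angelman syndrome genes, whose paternal genes share the imprinting centre at Snrpn. The other measured genes there were Magel2, a regulator of ubiquitin ligases, Mkrn3, a ubiquitin ligase, and Peg12. Their log2 changes were 0.09 ± 0.07, 0.11 ± 0.11 and 0.03 ± 0.07, with limma adjusted p-values of 0.503, 0.580 and 0.861. The block did not bring them past the threshold (0.376, 0.262 and 0.808). Ndn was thus the called gene among 4 measured in its cluster, and the difference between Ndn and its neighbours was not tested.

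Peg3 encodes a large zinc-finger protein. It read 11.98, 11.93 and 11.97 in untreated and 12.20, 12.33 and 12.22 in tamoxifen arrays. The untreated values were close together, with a standard deviation (SD) of 0.02, and all tamoxifen values were higher. The change was 0.29 ± 0.06 with a limma adjusted p of 0.0280, or 0.0161 with the block. Of 6 fits without an array 2 kept the call. It was lost without untreated replicate 2 (adjusted p = 0.0971) or replicate 3 (0.0643), without tamoxifen replicate 2 (0.117) or replicate 3 (0.0790), and over all probe sets of the table (0.0786).

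Peg3 has an imprinted gene on either side. Zim1, a maternally expressed zinc-finger gene, read 6.47, 6.48 and 6.48 before and 6.59, 6.69 and 6.75 after tamoxifen, with no overlap. Its change of 0.20 ± 0.06 was not called (limma adjusted p = 0.0963, or 0.0557 with the block). Usp29, a paternally expressed gene for a ubiquitin protease that starts beside Peg3, had a change of 0.04 ± 0.09 and an adjusted p of 0.812. Usp29 was among the 5 members whose mean signal lay below the 25th percentile of all genes, where changes are compressed towards 0. The others were Rian, Asb4, Dcn and Airn.

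**Figure D2:**
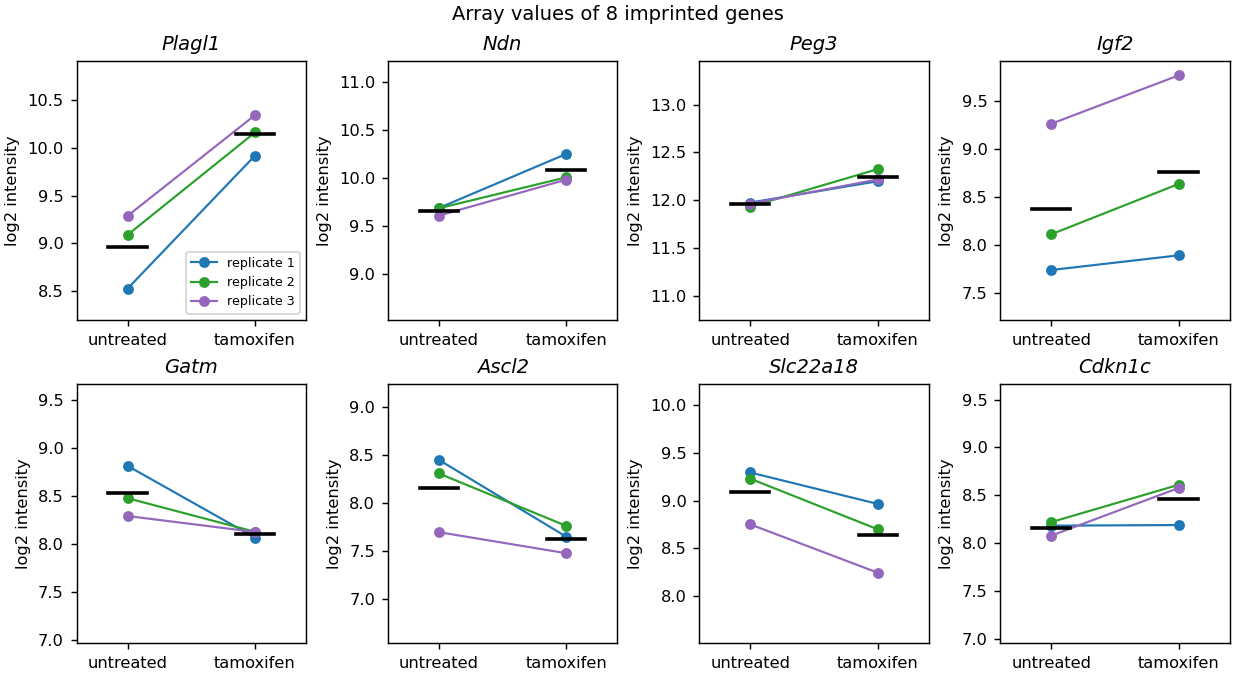
Log2 intensity of 8 members in each of the 6 arrays, with lines joining arrays of the same replicate number and black bars for group means. All panels span the same range of log2 units. Plagl1, Ndn, Peg3 and Gatm show no overlap between groups, while Igf2 differs more between replicate numbers than between groups.

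Igf2, the fetal insulin-like growth factor, had the largest spread within groups of the members. It read 7.74, 8.11 and 9.26 in untreated arrays and 7.89, 8.64 and 9.77 in tamoxifen arrays. Replicate 3 was highest in both groups and replicate 1 lowest in both, so the groups overlapped widely. The pooled SD within groups was 0.87, rank 2 among 19938 genes, for which the median was 0.09. The unblocked change was 0.39 ± 0.49 with a limma adjusted p of 0.669. Within pairs the difference was 0.15, 0.53 and 0.51, and the blocked fit called it higher (adjusted p = 0.0145). Without tamoxifen replicate 3 the unblocked change was -0.11, while untreated replicate 3, the highest of its group, stayed in that fit. The unblocked sign thus depends on which arrays are in the fit.

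Among the trophoblast markers, the keratin genes Krt8 and Krt18, singled out after their values were seen, were highest in the same arrays as Igf2. Krt8 read 9.57, 9.92 and 10.41 in untreated and 9.49, 9.84 and 10.64 in tamoxifen arrays. For both keratins replicate 3 of each group was highest and replicate 1 lowest. Limma called 0 of the 9 trophoblast markers at an adjusted p, against 7.78% of all genes. Without adjustment 2 were higher and 1 lower under 0.05, against 11.5% and 13.1% of all genes. With the block 1 was higher and 2 lower, against 7.87% and 9.54%. The mean level over the 9 did not follow the order of Igf2: it was 8.21, 8.15 and 8.30 in untreated and 8.21, 8.12 and 8.36 in tamoxifen arrays, lowest in replicate 2 of each group. Values of the other trophoblast markers are not given singly here. Whether trophoblast cells were present, and whether they had a part in the Igf2 signal, was not tested. In bulk RNA, more cells of a type and more RNA per cell cannot be told apart.

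The receptor side was not called. Igf2r, the maternally expressed receptor that removes IGF2 by taking it to lysosomes, read 10.65, 10.56 and 10.62 before and 10.70, 10.54 and 10.60 after tamoxifen. The groups overlapped, and its change was 0.01 ± 0.07 (limma adjusted p = 0.973). Airn, the paternal non-coding RNA that silences Igf2r in cis, read 5.68, 5.45 and 5.93 and then 5.59, 5.64 and 5.67. Its change was -0.05 ± 0.11 (adjusted p = 0.801), at a low signal. Grb10, an adaptor that dampens insulin and IGF receptor signalling, had a change of 0.02 ± 0.06 (adjusted p = 0.847).

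Of 14 measured ligands, receptors, substrates and binding proteins, 4 rose, none fell and 10 were not called, against 3.79% called higher and 3.99% called lower over all genes. At an unadjusted limma p under 0.05, 4 were higher and 0 lower, against 11.5% and 13.1% of all genes. The median log2 change was 0.14. Igfbp7, a secreted protein that binds insulin-like growth factors, rose by 1.24 ± 0.09 on the log2 scale, and the ligand Igf1 by 0.56 ± 0.07, both called in every fit without an array. The insulin receptor substrate Irs2, also named outside the rule (0.49 ± 0.12, adjusted p = 0.0396) kept its call in 1 of 6 such fits. Igf2bp3 (0.23 ± 0.06, adjusted p = 0.0487), likewise outside it, whose product binds Igf2 messenger RNA, kept it in 0 of 6, with adjusted p-values up to 0.157. With the block 6 of the 14 were higher and 1 lower, against 7.87% and 9.54% of all genes. The list was chosen with earlier results of these data known, and its difference from all genes was not tested.

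Among maternally expressed genes, Gatm, which encodes an enzyme of creatine synthesis and is imprinted in placenta, was lower in all pairs. It read 8.82, 8.48 and 8.29 in untreated and 8.07, 8.13 and 8.13 in tamoxifen arrays. The tamoxifen values lay close together, below all untreated values. The change was -0.42 ± 0.12 with a limma adjusted p of 0.0645, past the threshold with the block (0.0252). It also passed with array weights (0.0347) and without untreated replicate 3 (0.0341). The other fits without an array did not call it (adjusted p from 0.0735 to 0.167). Nor did median centring (0.0518), cyclic loess (0.0686) or all probe sets of the table (0.166).

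The Kcnq1 domain, which runs here from Ascl2 to Osbpl5, had values on both sides of 0. Its maternally expressed genes are silenced on the paternal copy by the non-coding RNA Kcnq1ot1. Limma called 0 of its 16 measured genes at an adjusted p under 0.05, against 7.78% of all genes. Before adjustment (p under 0.05) 2 were higher and 2 lower, against 11.5% and 13.1% of all genes. With the block 1 was higher and 3 lower, against 7.87% and 9.54% of all genes. A difference of the domain from all genes was not tested. The 3 lower included the members Ascl2 and Slc22a18, whose array values were looked at because of this, outside the naming rule.

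Ascl2, a basic helix-loop-helix factor needed for placental development, read 8.45, 8.31 and 7.70 in untreated and 7.65, 7.76 and 7.48 in tamoxifen arrays. Untreated replicate 3 lay inside the tamoxifen range, so the groups overlapped. The change was -0.52 ± 0.18 (limma adjusted p = 0.107, or 0.0106 with the block). Within pairs it was -0.80, -0.55 and -0.22, and without untreated replicate 3 the unblocked fit called it too (adjusted p = 0.0144). Ascl2 was called in 1 of 6 fits without an array.

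Slc22a18, a membrane transporter, read 9.29, 9.23 and 8.75 in untreated and 8.96, 8.70 and 8.25 in tamoxifen arrays. Replicate 3 was lowest in each group and the groups overlapped. Within pairs the difference was -0.33, -0.53 and -0.50. The change was -0.45 ± 0.19 with a limma adjusted p of 0.185, or 0.00307 with the block.

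Cdkn1c, the cyclin-dependent kinase inhibitor p57, lies beside Slc22a18 and had a value on the other side of 0. It read 8.18, 8.22 and 8.08 in untreated and 8.19, 8.61 and 8.58 in tamoxifen arrays. Tamoxifen replicate 1 lay within the untreated range, and without it limma called the rise (0.43, adjusted p = 0.0160), in 1 of 6 fits without an array. With all arrays the change was 0.30 ± 0.11, with an adjusted p of 0.137, or 0.0604 with the block. Phlda2, a restraint on placental growth, had a change of -0.01 ± 0.08. The potassium channel gene Kcnq1 and the tetraspanin gene Cd81 had changes of 0.06 ± 0.06 and 0.06 ± 0.07. Adjusted p-values of these 3 ran from 0.616 to 0.966.

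**Figure D3:**
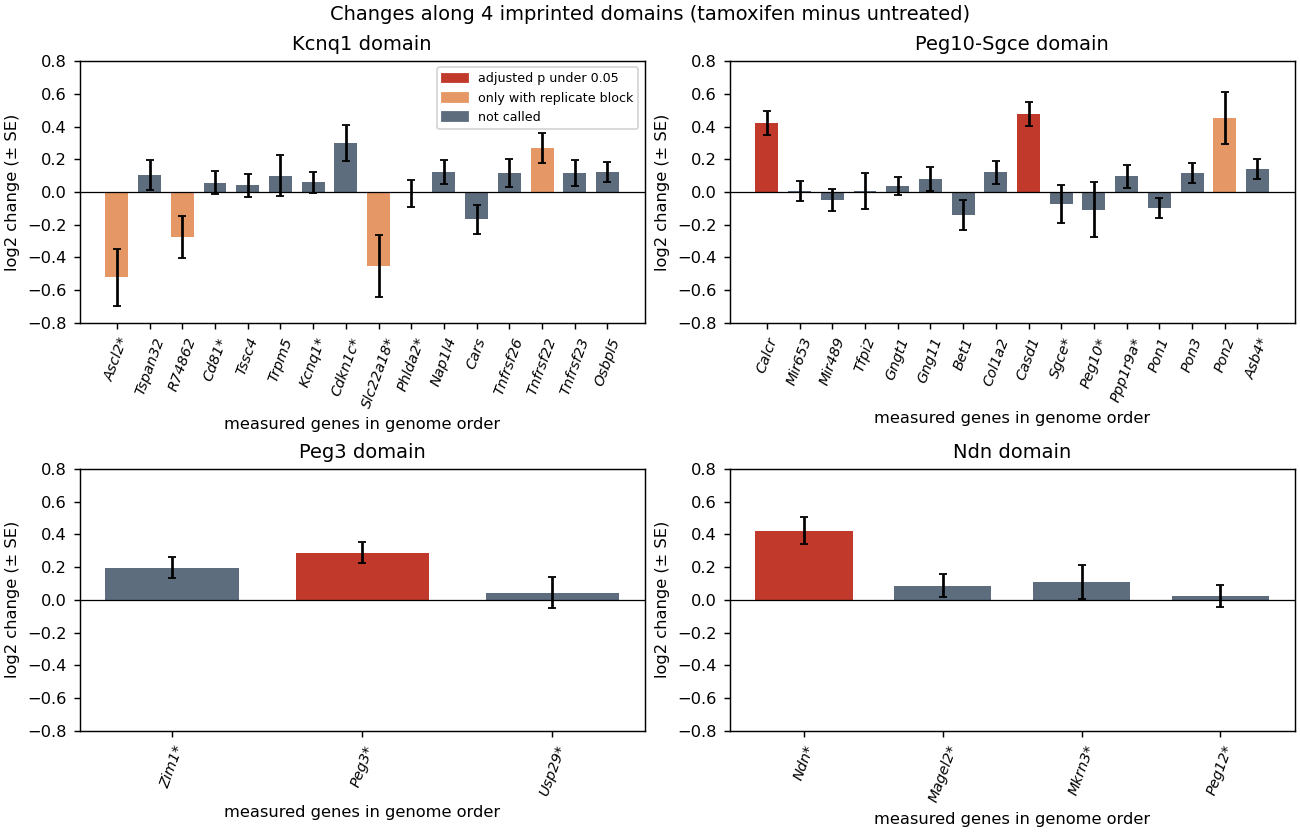
Log2 change with limma's SE of each measured gene in 4 imprinted domains, in RefSeq order, with members marked by an asterisk. Calcr, Casd1, Peg3 and Ndn are called, and Ascl2, R74862, Slc22a18, Tnfrsf22 and Pon2 only with the replicate block.

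In the Peg10-Sgce domain the genes that rose were not members. Peg10, a retrotransposon-derived gene needed for the placenta, read 12.01, 12.23 and 12.40 in untreated and 11.70, 12.29 and 12.33 in tamoxifen arrays. The groups overlapped, with a change of -0.11 ± 0.17 (limma adjusted p = 0.739). Sgce, which encodes a sarcoglycan and starts next to Peg10, had a change of -0.08 ± 0.12, Ppp1r9a of 0.10 ± 0.07 and Asb4 of 0.14 ± 0.06. Next to Sgce, Casd1, which encodes a sialic acid acetyltransferase, rose, with a log2 change of 0.48 ± 0.08 (adjusted p = 0.0105). Calcr, the calcitonin receptor gene at the far end, rose by 0.42 ± 0.07 (adjusted p = 0.0135). Casd1 was called in 5 and Calcr in 3 of 6 fits without an array, and neither was over all probe sets of the table (0.0523 and 0.0595). Between them Tfpi2, Gngt1, Gng11, Bet1, Col1a2 and the microRNA genes Mir653 and Mir489 were not called.

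The Dlk1-Dio3 domain showed no called gene among 48 measured without the block, against 7.78% of all genes. Meg3, its maternally expressed non-coding RNA, read 6.29, 6.21 and 6.21 in untreated and 6.37, 6.46 and 6.32 in tamoxifen arrays. The tamoxifen values were all higher, by little, and the change of 0.14 ± 0.06 was not called (limma adjusted p = 0.206, or 0.148 with the block). Dlk1, a paternally expressed Notch-like surface protein, read 8.10, 7.95 and 7.95 and then 8.07, 8.21 and 7.95, with overlap. Its change was 0.07 ± 0.08 (adjusted p = 0.640). Rtl1, a retrotransposon-like gene, had a change of -0.03 ± 0.06, and Rian, a maternal host of small RNAs, of -0.13 ± 0.10.

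Dicer acts on hairpins cut from transcripts of this domain, and 40 of the 48 genes measured between Dlk1 and Dio3 were microRNA genes. Their probe sets read RNA of the hairpin locus, not mature microRNAs alone. Untreated means ran from 3.68 (Mir376c) to 8.79 (Mir341), where the lowest value of any probe set was 3.18. Many of the 40 were dimmer than Rian, whose mean lay at the 11.5th percentile of all genes. Changes of such dim probe sets are compressed towards 0, so a locus not called is not shown to be unchanged. Limma called 0 of the 40, against 7.78% of all genes. At an unadjusted p under 0.05, 2 of the 40 were higher and none lower, against 11.5% and 13.1% of all genes. The median change of the 40 was 0.01, with a range from -0.11 for Mir329 to 0.31 for Mir134. Mir134 (0.31 ± 0.09, adjusted p = 0.0795), singled out after its value was seen, passed with the block (0.0280). In the Igf2 cluster, Mir483, which lies in an intron of Igf2, had a change of 0.22 ± 0.08 (adjusted p = 0.132, or 0.0746 with the block).

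**Figure D4:**
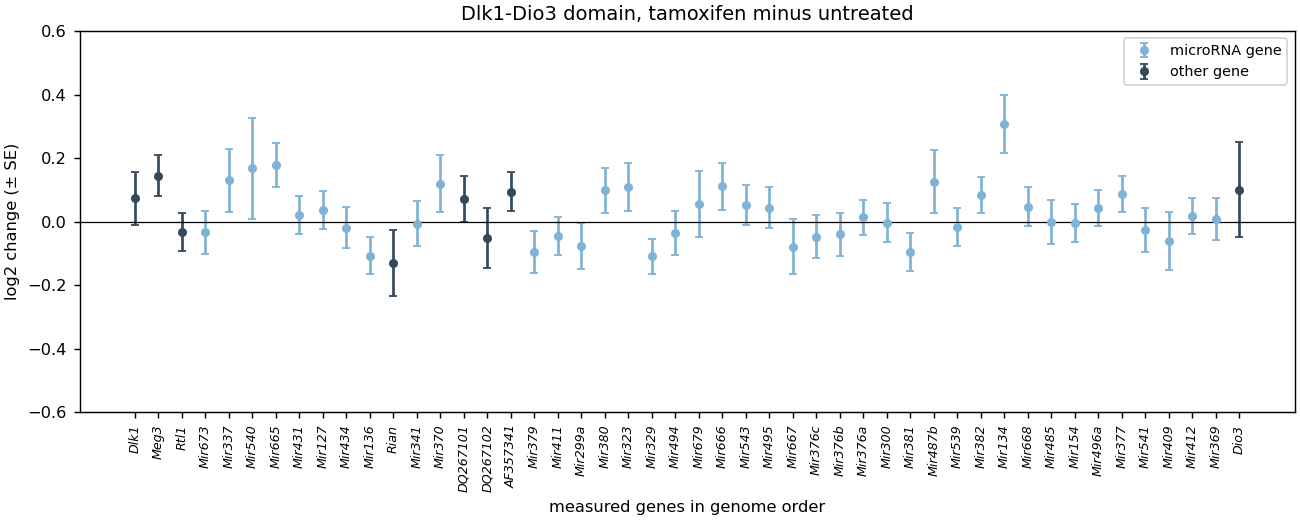
Log2 change with limma's SE of the 48 measured genes from Dlk1 to Dio3, in RefSeq order, with the 40 microRNA genes in light blue. All but Mir134 at 0.31 lie within 0.2 of zero.

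Of the members not yet described none was called. Impact, which encodes an inhibitor of the stress kinase GCN2, read 11.45, 11.53 and 11.65 before and 11.65, 11.67 and 11.88 after tamoxifen, with a change of 0.19 ± 0.08 (limma adjusted p = 0.198, or 0.0521 with the block). Slc38a4, an amino acid transporter, had a change of -0.15 ± 0.07 (adjusted p = 0.230) with no overlap between the groups. Mest, Zdbf2, Nnat and Dcn had changes from -0.12 to 0.07, with adjusted p-values from 0.647 to 0.798. In all, 7 members were higher and 2 lower in every tamoxifen array than in every untreated array. Over all genes 14.5% were higher and 14.8% lower in this way.

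Among 40 other measured genes reported as imprinted, 4 rose and 2 fell, against 3.79% called higher and 3.99% called lower over all genes. With the block 6 were higher and 3 lower, against 7.87% and 9.54% of all genes. The share of the 40 called in either direction without the block lay above the 7.78% of all genes, and this difference was not tested. The median change was 0.02. Beside Calcr and Casd1, the rises were Ddc, which encodes the aromatic amino acid decarboxylase (0.89 ± 0.13, limma adjusted p = 0.00754), and Pde4d, a cyclic AMP phosphodiesterase (0.54 ± 0.08, adjusted p = 0.0085). Both were called in every fit without an array. Pde4d had 3 probe sets with a single symbol, and only the brightest is given here. Ddc is the neighbour of Grb10, for which the change was 0.02. Commd1 had a change of -0.42 ± 0.09 (adjusted p = 0.0286) and Trappc9 of -0.27 ± 0.06 (adjusted p = 0.0338), and each fall was called in 1 of 6 fits without an array.

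Of 30 genes that set, read or protect imprints, 1 rose and 1 fell. That is 6.67% of the 30, near the 7.78% called over all genes. Dnmt3l, which helps the methyltransferases set germ-line imprints, had a fall, with a log2 change of -0.84 ± 0.11 (limma adjusted p = 0.00616). Tet3, an enzyme that oxidises methylcytosine, rose by 0.44 ± 0.11 (adjusted p = 0.0485) and kept its call in 1 of 6 fits with an array left out. No regulator was called higher with probe-set means, median centring, repeated quantile normalisation, all single-symbol probe sets or cyclic loess (adjusted p of Tet3 = 0.0600 with the last). No gene for the proteins that hold imprints after fertilisation was called without the block. Zfp57 had a change of -0.07 ± 0.07, its partner Trim28 of -0.01 ± 0.06 and Dppa3 of 0.12 ± 0.12. For Tet3 and Dppa3, each with 2 probe sets of a single symbol, only the brightest is given here. With the block 20.0% of the 30 were called, near the 17.4% of all genes, with 2 higher and 4 lower. Among the latter were Uhrf1, which guides maintenance methylation (-0.27 ± 0.08 unblocked, adjusted p = 0.0676, or 0.0136 with the block), and Zfp445, a zinc-finger protein that protects imprints (-0.20 ± 0.06, adjusted p = 0.0813, or 0.0431). Both were lower in all pairs with no overlap between groups. Another of the 4 was the de novo methyltransferase Dnmt3b (-0.42 ± 0.20 unblocked, adjusted p = 0.232, or 0.00293 with the block). Of the 30, 3 were higher and 9 lower without overlap between groups, against 14.5% and 14.8% of all genes. This difference was not tested.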

How the data were processed

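Total RNA of 6 samples was hybridised to Affymetrix arrays. The deposited values are log2 intensities; the submitters' processing notes name RMA (the robust multi-array average) and Expression Console 1.2. The values themselves show the log scale (3.18 to 14.6, array medians 7.19 to 7.26). RMA forces arrays to a common distribution, so a shift of most transcripts is invisible, and it compresses changes of dim probe sets. There is no detection call.

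The platform annotation gave a single symbol for 21789 of 35556 probe sets, several for 1621 and no listed gene for 12146. RefSeq (GRCm38.p6) held the Entrez IDs of 21698 of them with 1 symbol. The brightest probe set stood for each of 19938 genes. Group differences were fitted in limma 3.58.1 (R 4.3.3, lmFit, eBayes, two-sided tests). Benjamini-Hochberg adjustment ran over all genes, with a call under 0.05. Tested on simulated arrays of 19938 genes, the fit recovered 69% of log2 changes of 0.5 and 92% of changes of 1. The simulation changed few genes and drew noise independently for each array. In the data 1552 genes were called and same-numbered arrays correlated, so these rates are not the power of the real comparison. The number of arrays limits the precision.

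Since each same-numbered correlation exceeded 0.1, replicate numbers were taken to pair the arrays, and blocked values stand beside unblocked ones. Array values are given for called members, for members without overlap that changed by at least 0.3, and for genes of 4 reciprocally imprinted pairs. Those of Ascl2, Slc22a18, Zim1, Peg10 and Impact were added after their values were seen. Up to 2 called genes per direction are named from each other list, and any further gene is a locus neighbour or was chosen after its values were seen. Members, lists and domains were chosen with earlier results of these data known. Alternatives were the block, probe-set means, a filter on dim genes, other normalisations, a trended robust prior, weights per array, every probe set of the table, stricter calls and omission of single arrays. Cyclic loess was added after the data were seen.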

Additional observations from a re-analysis of the deposited data

How the results depend on the processing

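The counts of members depended on the arrays and on the set of features tested. With 3 members called higher and 0 lower, the replicate block (the pairing of same-numbered arrays) gave 4 higher and 3 lower, and 3472 genes in all against 1552. Array weights gave 1 lower and 2511 genes in all. Testing all probe sets of the table called 0 members higher and 336 probe sets, an adjusted p under 0.01 called 0 members higher and 276 genes, and an added log2 change of at least 0.5 left 1 member higher (Plagl1) and 442 genes. Without an array, 1 to 4 members were higher, 0 to 2 lower, and 355 to 1580 genes were called in all. Probe-set means, the filter on dim genes, median centring, renewed quantile normalisation, the trended robust prior, all probe sets with a single symbol and cyclic loess left 3 members higher and 0 lower. Of the 12 members followed singly under these settings, Airn, Igf2r and Igf2 turned sign, none of them called without the block. Signs of other members with changes near 0 were not followed. Airn was 0.0247 with array weights and ran from -0.171 to 0.0654 without an array (highest without untreated replicate 3). Igf2r was -0.0285 with median centring and ran from -0.0389 to 0.0442 without an array, below 0 also without untreated replicate 2 (-0.02). Igf2 ran from -0.11 without tamoxifen replicate 3 to 0.841 without untreated replicate 3. The cause of these shifts was not tested.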
